A study of Homo sapiens with 6 samples.

Results

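Of 70523 probe sets in the deposited array table, 1313 carried 2 or more gene symbols in the platform annotation and lay on chromosomes 1 to 22 or X, once the probe set that reports SND1 was left out. These shared probe sets are the subject here. A probe set is a group of short oligonucleotides whose signals are summarised into 1 value, and a shared one gives 1 value for all its symbols, so each is named below by all of them and its value belongs to none of them alone. Of the 1313, 945 carried 2 symbols, 245 carried 3 or 4 and 123 carried 5 or more, up to 16. They fell into 1081 different sets of symbols, and 99 of them had the same values on all 6 arrays as another shared probe set, which left 1245 distinct sets of values. For 187 of them all the symbols were names of 1 current gene, old and new, in the RefSeq gene table.

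The arrays carried RNA from SKOV3, an established human ovarian carcinoma line. The SND1 knockdown group held 3 arrays of cells that stably carry 1 hairpin against SND1, labelled shSND1-#2, and the vector control group held 3 arrays of cells that stably carry the empty pLKO-Vector. Both groups grew untreated in McCoy's 5A medium with 10% fetal bovine serum, and 6 µg of total RNA was labelled for each array. The knockdown line rests on 1 hairpin, the title of 1 knockdown sample carries a further number of unstated meaning, and no label states whether each replicate had a culture of its own. The spread behind the p-values may therefore be purely technical.

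All levels are log2 values as the authors deposited them, and each difference is SND1 knockdown minus vector control with n = 3 arrays per group. A probe set was called when its adjusted p in limma, over all 67528 transcript probe sets, lay under 0.05. The means of 23 background control probe sets ran from 2.38 to 6.28, with a median of 3.11. Levels at or below the highest, 6.28, are described as within the background range, though they can exceed most of these controls. Where the dimmer group lay there, a fold is given as at least the ratio to 6.28, and where both groups did, no fold is given. Array medians ran from 4.13 to 4.19. Across probe sets, which are not independent replicates, Pearson's r was 0.9846 to 0.9868 for a knockdown with a control array and 0.9953 to 0.9967 within a group. The SND1 probe set, shared with the intronic transcript SND1-IT1, read 5.88, 5.70 and 5.99 in SND1 knockdown arrays and 8.83, 8.60 and 8.80 in vector control arrays. It was at least 5.51-fold lower after knockdown (log2 difference -2.89 ± 0.10 SE, limma adjusted p = 1.04e-05). Of 8 markers of the ovarian line with a probe set of their own, 7 lay above 6.28 in at least 1 group, MUC16 in the vector control alone, and WT1 lay within the background range. Of 10 markers of blood, vessel, muscle, liver and glial cells, 0 did.

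Genes come to share a probe set in several ways. Many microRNAs and small nucleolar RNAs are cut from the introns or exons of longer host transcripts, so that oligonucleotides for the host also cover the small RNA. Readthrough transcripts join neighbouring genes, antisense transcripts lie opposite a gene, and recent duplications leave copies so alike that an oligonucleotide binds several. SND1 encodes a tudor domain and nuclease protein that takes part in transcription, splicing and the handling of small RNAs and edited double-stranded RNA.

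Hosts of microRNAs stood at both ends of the ranking, and the mature microRNAs inside them are shown here because the array value cannot be split between host and small RNA. Of 275 microRNA symbols on shared probe sets, 247 had a mature sequence in the RefSeq table. Sequences are from RefSeq on GRCh38.p14, written 5′ to 3′ with the seed (bases 2 to 8, the stretch that pairs with targets) in capitals. The following are from hosts that passed the test: FSTL1 (miR-198, chr3:120395703-120395724, minus strand), ERBB2 (miR-4728, with the 5p arm at chr17:39726496-39726518, plus strand), ADCY6 (miR-4701, 5p arm at chr12:48772014-48772035, minus strand), PDCD4 (miR-4680, 5p arm at chr10:110898094-110898116, plus strand), NPC2 (miR-4709, 5p arm at chr14:74480175-74480196, minus strand), LAMB3 (miR-4260, chr1:209623482-209623500, minus strand) and LAMA5 (miR-4758, 5p arm at chr20:62332534-62332556, minus strand).
hsa-miR-198: gGUCCAGAggggagauagguuc
hsa-miR-4728-5p: uGGGAGGGgagaggcagcaagca
hsa-miR-4728-3p: cAUGCUGAccucccuccugccccag
hsa-miR-4701-5p: uUGGCCACcacaccuaccccuu
hsa-miR-4701-3p: aUGGGUGAuggguguggugu
hsa-miR-4680-5p: aGAACUCUugcagucuuagaugu
hsa-miR-4680-3p: uCUGAAUUguaagaguuguua
hsa-miR-4709-5p: aCAACAGUgacuugcucuccaa
hsa-miR-4709-3p: uUGAAGAGgaggugcucuguagc
hsa-miR-4260: cUUGGGGCauggaguccca
hsa-miR-4758-5p: gUGAGUGGgagccgguggggcug
hsa-miR-4758-3p: uGCCCCACcugcugaccacccuc
These seeds differ from one another.

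A second set of microRNAs is shown because its members share a seed, AGCAGCA, while their host probe sets moved in opposite directions. They are miR-15a (chr13:50049167-50049188) and miR-16 (chr13:50049027-50049048), both from DLEU2, and miR-424 (chrX:134546680-134546701) beside MIR503HG, all on the minus strand of GRCh38.p14. The sequence of miR-21 (chr17:59841273-59841294, plus strand) is added since its own probe set and the one it shares with VMP1 responded differently.
hsa-miR-15a-5p: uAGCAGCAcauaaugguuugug
hsa-miR-16-5p: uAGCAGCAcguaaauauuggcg
hsa-miR-424-5p: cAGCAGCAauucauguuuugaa
hsa-miR-21-5p: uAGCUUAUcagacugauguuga

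Copies of 1 gene also changed, and the 250 bases before their annotated starts are shown because they tell how alike the copies are. Sequences are from RefSeq on GRCh38.p14, 5′ to 3′ along each gene, and capitals mark bases that differ from, or fall outside, a global alignment to the copy printed above in the same family. SPANXB1 (chrX:141002344-141002593, plus strand) and SPANXA1 (chrX:141584739-141584988, minus strand) matched at 208 of 250 bases, and the run of capitals at the end of SPANXA1 lies past the end of the SPANXB1 window because the annotated starts are offset. The SPANXA1 and SPANXA2 windows were identical, and SPANXC matched SPANXA1 at 247 of 250 bases.
SPANXB1: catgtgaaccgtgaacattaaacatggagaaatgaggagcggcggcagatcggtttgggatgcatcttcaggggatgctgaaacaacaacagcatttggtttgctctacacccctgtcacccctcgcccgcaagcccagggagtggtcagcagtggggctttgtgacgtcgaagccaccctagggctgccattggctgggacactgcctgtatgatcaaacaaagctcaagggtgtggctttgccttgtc
SPANXA1: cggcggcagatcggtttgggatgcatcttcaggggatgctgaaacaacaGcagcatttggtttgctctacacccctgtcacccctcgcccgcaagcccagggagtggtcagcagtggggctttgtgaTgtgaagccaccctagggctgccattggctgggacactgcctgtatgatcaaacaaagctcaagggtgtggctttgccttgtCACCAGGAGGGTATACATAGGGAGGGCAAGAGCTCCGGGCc

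The windows of CGB5 (chr19:49043598-49043847, plus strand) and CGB8 (chr19:49049112-49049361, minus strand) matched at 233 of 250 bases, and CGB3 matched CGB5 at 241. Those of SULT1A3 (chr16:30199005-30199254, plus strand) and SULT1A4 (chr16:29459663-29459912, plus strand) were identical at all 250 bases, so 1 is printed.
CGB5: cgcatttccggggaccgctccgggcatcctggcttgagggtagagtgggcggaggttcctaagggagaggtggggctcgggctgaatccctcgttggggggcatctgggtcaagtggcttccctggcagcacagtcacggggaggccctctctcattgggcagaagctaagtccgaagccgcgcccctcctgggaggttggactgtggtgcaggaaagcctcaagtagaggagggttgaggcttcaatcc
CGB8: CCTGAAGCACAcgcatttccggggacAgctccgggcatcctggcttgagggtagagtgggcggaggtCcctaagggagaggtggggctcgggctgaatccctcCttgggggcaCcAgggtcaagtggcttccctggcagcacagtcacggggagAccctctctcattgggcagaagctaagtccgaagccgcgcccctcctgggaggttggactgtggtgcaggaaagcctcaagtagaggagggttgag
SULT1A3: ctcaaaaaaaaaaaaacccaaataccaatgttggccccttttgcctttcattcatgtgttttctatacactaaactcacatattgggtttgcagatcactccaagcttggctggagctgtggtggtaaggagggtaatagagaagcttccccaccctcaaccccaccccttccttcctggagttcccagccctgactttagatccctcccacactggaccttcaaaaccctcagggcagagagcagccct

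Across all 1313 shared probe sets, 155 rose and 118 fell after SND1 knockdown, together 20.8%, and 103 were higher when vector control replicate 3 was left out. The background was 14.3% called over all 67528 transcript probe sets (7.71% higher and 6.55% lower) and 23.5% over the 23781 with 1 symbol (11.9% higher and 11.6% lower). The median log2 difference was 0.02 over shared probe sets and 0.01 over all. The groups did not overlap for 575 shared probe sets, where the share over all transcript probe sets was 29.9% and over those with 1 symbol 43.3%, and for 370 of the 592 with a mean above 6.28, where it was 60.6% over all transcript probe sets above it. Of 592 shared probe sets with a mean above 6.28, 125 rose and 79 fell, or 34.5%, against 38.5% of all 15930 transcript probe sets above it (21.9% higher and 16.6% lower). Of the 721 at or below 6.28, 30 rose and 39 fell, or 9.57%. The 14.3% over all transcript probe sets includes those above 6.28, so it is no like background for these 721. Fitted changes of at least 2-fold were called for 15 higher and 26 lower shared probe sets, where the background was 1.24% and 1.38% over all transcript probe sets and 1.96% and 2.33% over those with 1 symbol.

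**Figure D1:**
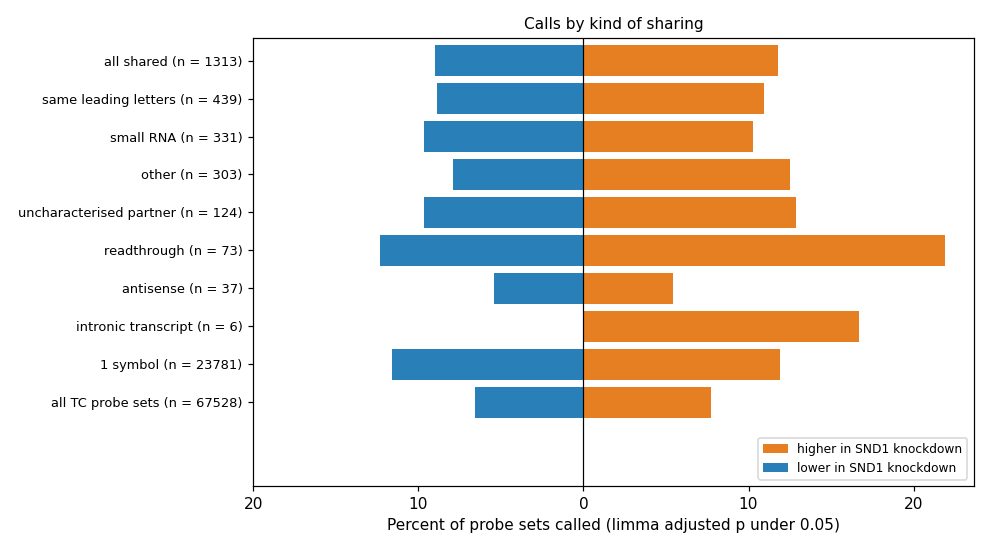
Percent of probe sets called higher (right of 0) and lower (left of 0) in SND1 knockdown against vector control, by kind of sharing, with all shared probe sets at the top and the probe sets with 1 symbol and all transcript probe sets at the bottom. Readthrough pairs had the longest bars of the kinds with more than 6 probe sets, and antisense pairs the shortest.

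The largest fall of a host with a microRNA was that of FSTL1/MIR198. FSTL1 encodes a secreted follistatin-like glycoprotein, and miR-198 lies in its last exon. Its log2 level was 8.49, 8.55 and 8.46 in SND1 knockdown arrays and 14.22, 14.34 and 14.45 in vector control arrays. The groups lay far apart, with every knockdown array below every control array. The probe set was 57.2-fold lower (log2 difference -5.84 ± 0.08 SE, limma adjusted p = 1.25e-06). Neighbours, here and below, are the 10 nearest genes per side that have a probe set of their own with a mean above 6.28. The 20 neighbours of FSTL1 had a median difference of 0.50, with 13 higher and 1 lower. Over all transcript probe sets above 6.28, 21.9% were higher and 16.6% lower.

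PDCD4/MIR4680 fell as well. PDCD4 encodes an inhibitor of translation initiation that is a known target of miR-21. The levels were 7.51, 7.73 and 7.62 in SND1 knockdown arrays and 9.39, 9.56 and 9.70 in vector control arrays, 3.82-fold lower (-1.93 ± 0.10 SE, limma adjusted p = 5.05e-05). Of its 20 neighbours 10 rose and 1 fell. NPC2/MIR4709, whose host gene encodes a lysosomal cholesterol-binding protein, was 2.35-fold lower at 9.24, 9.24 and 9.52 in SND1 knockdown arrays against 10.51, 10.62 and 10.57 in vector control arrays. It lies on chromosome 14, where 10 of its 20 neighbours fell and 2 rose. GPRC5A/MIR614, with a host gene for an orphan receptor induced by retinoic acid, was 1.78-fold lower (-0.83 ± 0.09 SE). OSBPL6/MIR548N averaged 4.26 ± 0.04 in SND1 knockdown arrays and 6.30 ± 0.22 in vector control arrays (SD, n = 3 each), a difference of -2.03, with the control mean barely above the background range. RefSeq places OSBPL6, a gene of the oxysterol-binding family, and MIR548N on different chromosomes.

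Among the hosts that rose was ERBB2, the receptor tyrosine kinase gene known to be overexpressed in SKOV3, which has no probe set of its own here and is read through ERBB2/MIR4728. It stood at 16.53, 16.57 and 16.51 in SND1 knockdown arrays and 15.49, 15.27 and 15.45 in vector control arrays. This is 2.19-fold higher (1.13 ± 0.07 SE, limma adjusted p = 0.000143), with no overlap between groups. Its knockdown values exceed 16, the log2 ceiling of a 16-bit scanner, as did 92 values on shared probe sets, so the deposited scale is not the scanner's own and fold sizes depend on it. ADCY6/MIR4701, with a host gene for an adenylyl cyclase, stood at 10.70, 10.81 and 10.78 in SND1 knockdown arrays and 9.56, 9.43 and 9.43 in vector control arrays, 2.45-fold higher. The laminin chain genes LAMB3 (with MIR4260) and LAMA5 (with MIR4758) rose 1.96-fold and 1.76-fold. COX7C/MIR3607, with a host gene for a subunit of cytochrome c oxidase, rose 1.91-fold (0.94 ± 0.07 SE).

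Counted together, 143 probe sets joined a microRNA to another gene, where host genes whose symbols begin with MIR, such as MIR503HG, were not counted. Of these 143, 24 rose and 25 fell, or 34.3%. Of the 96 among them above 6.28 in at least 1 group, 20 rose and 22 fell, or 43.8%, against 39.7% called over all 16713 transcript probe sets with at least 1 group above it. Of 121 probe sets whose symbols were small RNAs alone or with such a MIR-named host gene, 2 rose and 2 fell, or 3.31%. The 2 falls were MIR424/MIR503HG and SCARNA9/SCARNA9L. The shares of 34.3% and 3.31% stand beside a background of 14.3%. The arrays were labelled from total RNA, and whether mature microRNAs contributed to any of these values was not tested.

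The DLEU2 probe set, shared with MIR15A and MIR16-1, rose. DLEU2 is a long noncoding RNA that hosts both microRNAs, which are known to restrain BCL2 and cyclins. Its levels were 8.01, 7.88 and 8.20 in SND1 knockdown arrays and 7.35, 7.31 and 7.26 in vector control arrays, 1.65-fold higher (0.72 ± 0.09 SE, limma adjusted p = 0.00249). MIR424/MIR503HG, whose microRNA has the same seed, read 4.20, 4.11 and 4.29 in SND1 knockdown arrays against 4.60, 4.65 and 4.69 in vector control arrays. It fell by 0.45 (± 0.07 SE, limma adjusted p = 0.00605) within the background range. With miR-195 and miR-497, 4 shared probe sets held a microRNA of this seed, and 1 rose and 1 fell. Over all shared probe sets, 36 seeds were common to different microRNA symbols.

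HOX clusters carry microRNAs of the miR-10 family between their genes. MIR10A/HOXB3/HOXB4 stood at 9.34, 9.28 and 9.30 in SND1 knockdown arrays and 8.96, 8.90 and 8.91 in vector control arrays, 1.30-fold higher (limma adjusted p = 0.00515). MIR10B/HOXD3/HOXD4 rose by 0.36 ± 0.06 SE within the background range. Of 6 shared probe sets on the list of HOX and developmental transcription factors, 2 rose and 0 fell, these being both of them.

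Small nucleolar RNAs, which guide the chemical modification of ribosomal RNA, are mostly released from introns of their hosts. Of 67 probe sets that joined a small nucleolar or Cajal body RNA to another gene, 8 rose and 5 fell, or 19.4%, between the 14.3% over all transcript probe sets and the 23.5% over those with 1 symbol. SNHG1, a noncoding host, shares its probe set with SNORD22 and SNORD25 to SNORD31 and read 12.97, 13.16 and 13.07 in SND1 knockdown arrays against 12.55, 12.46 and 12.46 in vector control arrays. It rose 1.49-fold (0.58 ± 0.07 SE, limma adjusted p = 0.00237). SNORA41/EEF1B2, with a host gene for a translation elongation factor subunit, rose 1.30-fold. SEC14L1/SNHG20/SCARNA16 fell by 0.54 (± 0.08 SE) and RPS13/SNORD14B, whose host gene encodes a ribosomal protein, by 0.37. The RPS13 call ended when vector control replicate 1 (adjusted p = 0.0792), 2 (0.0766) or 3 (0.0590) or SND1 knockdown replicate 3 (0.0698) was left out. SCARNA9/SCARNA9L, a pair of Cajal body RNA symbols placed on different chromosomes, fell to 11.6 ± 0.07 in SND1 knockdown arrays, against 12.4 ± 0.09 in vector control arrays (SD, n = 3 each).

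**Figure D2:**
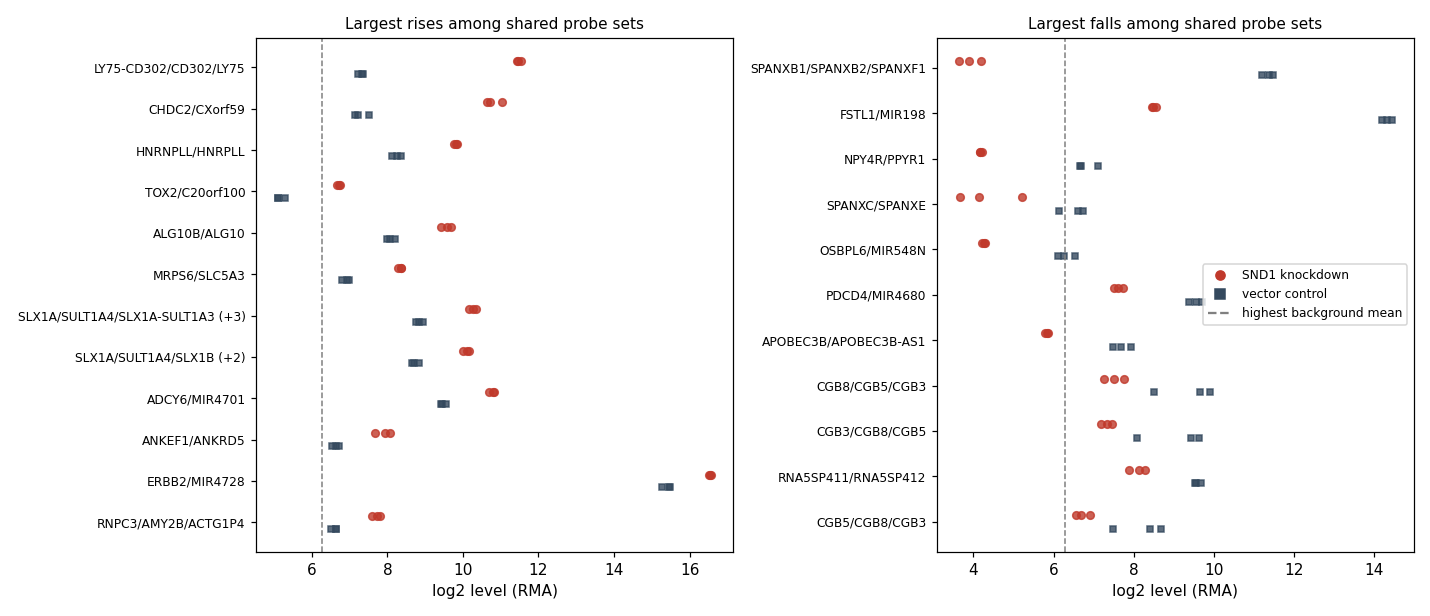
Log2 level on each array for the 12 largest rises (left panel) and the 12 largest falls (right panel, with the SPANXB1 probe set drawn once since its values were deposited for 2 probe sets). Circles are the 3 SND1 knockdown arrays and squares the 3 vector control arrays, and the dashed line is the highest background mean. Rows were chosen only from probe sets whose groups did not overlap.

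Among copies, the SPANX genes fell most. They encode proteins of the sperm nucleus that are otherwise silent in most tissues and appear in some tumours. SPANXB1/SPANXB2/SPANXF1, all names of the current SPANXB1, read 4.19, 3.63 and 3.88 in SND1 knockdown arrays and 11.22, 11.47 and 11.38 in vector control arrays. The knockdown arrays lay within the background range and the control arrays far above it. The fall was at least 33.8-fold (-7.46 ± 0.15 SE, limma adjusted p = 1.82e-06), and the same values were deposited for 2 probe sets. SPANXC/SPANXE read 4.13, 3.66 and 5.20 in SND1 knockdown arrays against 6.62, 6.14 and 6.75 in vector control arrays (-2.17 ± 0.38 SE, limma adjusted p = 0.0101), and its knockdown arrays varied most of the named probe sets.

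On the remaining SPANX probe sets neither group exceeded the background range. SPANXA1/SPANXA2 had 2 probe sets, which fell by 1.89 and by 1.27, and SPANXE/SPANXD fell by 0.68. All 6 SPANX probe sets were thus lower. Whether the smaller falls come from oligonucleotides that also bind SPANXB1 transcripts was not tested. Their chromosome X neighbours numbered 1 higher and 9 lower of 20, with a median of -0.20.

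The CGB genes encode the beta subunit of chorionic gonadotropin, a placental hormone that some carcinomas make. CGB8/CGB5/CGB3 read 7.75, 7.52 and 7.25 in SND1 knockdown arrays and 8.51, 9.67 and 9.92 in vector control arrays, 3.63-fold lower (-1.86 ± 0.36 SE, limma adjusted p = 0.0146). Vector control replicate 1 lay below the other control arrays on each CGB probe set, though still above every knockdown array. CGB3/CGB8/CGB5 was 3.32-fold lower and CGB5/CGB8/CGB3 2.78-fold lower. CGB1/CGB2 fell by 1.05 within the background range, and CGB2/CGB1 differed by -0.72 (limma adjusted p = 0.0542), so 4 of 5 were lower.
The call of CGB8/CGB5/CGB3 ended without vector control replicate 2 (adjusted p = 0.0584) or SND1 knockdown replicate 3 (0.0585). That of CGB3/CGB8/CGB5 ended without any 1 array other than vector control replicate 1, with adjusted p between 0.0657 and 0.0915. That of CGB5/CGB8/CGB3 ended without vector control replicate 2 (0.0658), SND1 knockdown replicate 2 (0.0597) or SND1 knockdown replicate 3 (0.0612).

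ANXA8 and its copies encode an annexin, a calcium-dependent membrane-binding protein. All 4 ANXA8 probe sets fell, by 1.17 to 1.43 on the log2 scale. LINC00842/ANXA8L1/ANXA8 read 5.67, 5.76 and 5.76 in SND1 knockdown arrays and 6.92, 7.44 and 7.14 in vector control arrays. The knockdown arrays lay within the background range on all 4, so each fall is at least 1.21-fold. These probe sets may read the same transcripts and are no replicates of one another. NPY4R/PPYR1, also on chromosome 10 and for a receptor of pancreatic polypeptide, was at 4.17, 4.22 and 4.17 in SND1 knockdown arrays against 6.66, 7.12 and 6.69 in vector control arrays, at least 1.45-fold lower (-2.64 ± 0.13 SE).

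**Figure D3:**
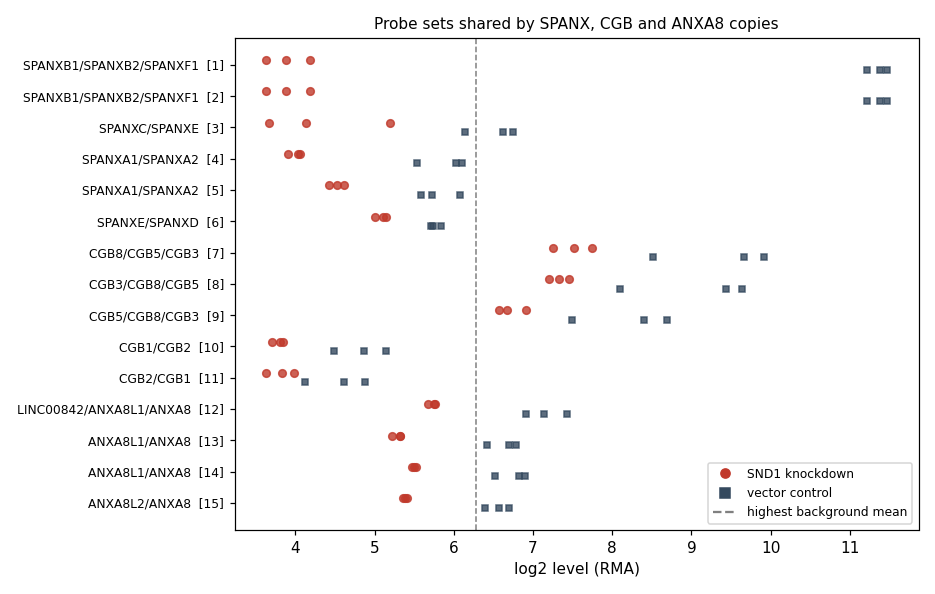
Log2 level on each array for the 15 probe sets shared by SPANX, CGB and ANXA8 copies, 1 numbered row each. Circles are the 3 SND1 knockdown arrays, squares the 3 vector control arrays and the dashed line the highest background mean, and the SPANXB1 rows show the widest gap between groups.

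Other copies rose. SULT1A3 and SULT1A4, copies of a sulfotransferase gene for catecholamines, each lie beside a copy of SLX1, which encodes a nuclease of DNA repair, and are joined to it by readthrough transcripts. Their probe set with 6 symbols read 10.25, 10.34 and 10.17 in SND1 knockdown arrays and 8.85, 8.76 and 8.95 in vector control arrays, 2.65-fold higher (1.40 ± 0.08 SE, limma adjusted p = 6.79e-05). The one with 5 symbols was 2.57-fold higher. Of 20 neighbours 3 rose and 1 fell. ALG10B/ALG10, for glucosyltransferases that finish the sugar precursor of N-glycans, rose 2.76-fold and averaged 9.56 ± 0.14 in SND1 knockdown arrays and 8.09 ± 0.11 in vector control arrays (SD, n = 3 each). Copies of golgin genes (GOLGA) had 13 probe sets, of which 6 rose and 0 fell. Of these, 12 lie on chromosome 15, with 5 of the rises, and the other rise was that of MTPAP/GOLGA2P6 on chromosome 10, which also covers an unrelated gene. The 6 were those above the background range in both groups, among them GOLGA8B/GOLGA8A at 9.88 ± 0.06 in SND1 knockdown arrays and 9.55 ± 0.05 in vector control arrays (SD, n = 3 each).

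For several families with many near-identical members the counts of calls follow, beside a background of 14.3% over all transcript probe sets. The 16 probe sets for the RNA5S genes, which encode the 5S ribosomal RNA, had 1 shared set of values and a difference of 0.16 (limma adjusted p = 0.814). Of 13 probe sets for the H4C genes, which encode histone H4, 2 fell (log2 differences -1.07 and -0.77) and 0 rose, or 15.4%. Of 13 for the H3C genes, which encode histone H3, 0 were called. The testis antigen families CT47A (11 probe sets), GAGE (9) and MAGE (8) had 0 calls, and 0 of their probe sets exceeded the background range in either group. Within CT47A and within GAGE some probe sets held 1 shared set of values. A difference under the threshold does not show that levels were the same. Among 5S pseudogenes RNA5SP411/RNA5SP412 fell to 7.90, 8.30 and 8.14 in SND1 knockdown arrays, against 9.69, 9.55 and 9.54 in vector control arrays, 2.80-fold lower. RNF5/RNF5P1, a gene for a ubiquitin ligase of the endoplasmic reticulum and its pseudogene on another chromosome, was 2.66-fold lower (-1.41 ± 0.09 SE). The UGT1A probe set with 9 symbols, for enzymes that attach glucuronic acid and share their last exons, fell by 1.38 to within the background range. The families in this and the preceding paragraphs were picked after their values were seen, and their counts are descriptions.

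Of 73 readthrough probe sets 16 rose and 9 fell, or 34.2%, the largest share of any kind with more than 6 probe sets. The background was 14.3% over all transcript probe sets and 23.5% over those with 1 symbol. Of the 73, 38 lay above 6.28 in at least 1 group, and of these 15 rose and 5 fell. Over all transcript probe sets with at least 1 group above it, 39.7% were called. LY75/CD302/LY75-CD302 had the largest rise of all shared probe sets. LY75 encodes an endocytic receptor of dendritic and epithelial cells, CD302 a small C-type lectin receptor, and a readthrough transcript fuses them. The levels were 11.44, 11.53 and 11.46 in SND1 knockdown arrays and 7.36, 7.21 and 7.33 in vector control arrays. The groups were far apart and each was tight. The rise was 18.1-fold (4.17 ± 0.07 SE, limma adjusted p = 1.44e-06). Of its 20 neighbours on chromosome 2, 15 rose and 1 fell, with a median of 0.73.

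SGK3/C8orf44-SGK3, for a kinase that acts downstream of phosphoinositide signals, rose 2.04-fold (1.03 ± 0.06 SE). PRR5/ARHGAP8/PRR5-ARHGAP8, which includes a component of the mTORC2 complex, rose to 6.75 ± 0.03 in SND1 knockdown arrays, against 5.97 ± 0.03 in vector control arrays (SD, n = 3 each). MOB4/HSPE1-MOB4 rose 1.66-fold, ERCC5/BIVM-ERCC5, with the gene for a nuclease of nucleotide excision repair, 1.58-fold and ZNF816/ZNF321P/ZNF816-ZNF321P, with a zinc finger gene, 1.55-fold. DNAJC25/GNG10/DNAJC25-GNG10 and NDUFC2/KCTD14/NDUFC2-KCTD14 fell by 0.48 each. INS/IGF2/INS-IGF2, which covers the insulin gene and an insulin-like growth factor gene, stood at 3.88 in both groups, within the background range.

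Neighbours without a readthrough name also shared probe sets. MRPS6/SLC5A3 rose: MRPS6 encodes a protein of the mitochondrial ribosome and SLC5A3, which overlaps it on the same strand, the myo-inositol transporter. It read 8.36, 8.37 and 8.29 in SND1 knockdown arrays and 7.00, 6.92 and 6.81 in vector control arrays, 2.70-fold higher (1.43 ± 0.07 SE). RNPC3/AMY2B/ACTG1P4, which includes a protein gene of the minor spliceosome, rose 2.16-fold. CERS1/GDF1 comprises a ceramide synthase and a growth factor gene read from 1 transcript, and was 1.83-fold lower (-0.87 ± 0.07 SE). CD59/C11orf91, with the gene for a complement inhibitor, was 1.93-fold lower. Where both genes had a RefSeq position, pairs that overlap on the same strand numbered 22 higher and 25 lower of 149 (31.5%), pairs on different chromosomes 9 higher and 8 lower of 69 (24.6%), and pairs apart on opposite strands 4 higher and 5 lower of 84 (10.7%), beside 14.3% over all transcript probe sets. These classes also differed in how many reached above 6.28 in at least 1 group, with 87 of 149, 43 of 69 and 12 of 84.

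Antisense pairs were called least among the larger kinds, with 2 of 37 higher and 2 lower, or 10.8%. This share stood beside 14.3% over all transcript probe sets, and 12 of the 37 lay above 6.28 in at least 1 group. APOBEC3B/APOBEC3B-AS1, with the gene for a DNA cytidine deaminase active in tumours, was at 5.79, 5.85 and 5.83 in SND1 knockdown arrays and 7.49, 7.93 and 7.68 in vector control arrays. It was at least 2.68-fold lower (-1.88 ± 0.11 SE, limma adjusted p = 9.05e-05). ZEB2/ZEB2-AS1 covers a transcription factor of the epithelial-mesenchymal transition and the antisense transcript known to aid its translation. It read 3.61, 3.58 and 3.57 in SND1 knockdown arrays and 3.75, 3.76 and 3.76 in vector control arrays, all within the background range. The groups did not overlap, but the difference of -0.17 ± 0.05 SE did not pass (limma adjusted p = 0.0985). The probe sets of this kind that rose were EPN2/EPN2-IT1/GRAPL-AS1 and PI4K2B/SEPSECS-DT, by 0.39 and 0.30. Their suffixed symbols are named after GRAPL and SEPSECS, and RefSeq places SEPSECS-DT apart from PI4K2B. Both calls are narrow, at adjusted p = 0.0188 and 0.0498. The EPN2 call ended without SND1 knockdown replicate 1 (adjusted p = 0.0566) or 2 (0.0620) or vector control replicate 2 (0.0725) or 3 (0.0752), and the PI4K2B call without any 1 array other than SND1 knockdown replicate 1, with adjusted p between 0.0951 and 0.147. The other fall was that of CTBP1-AS2/CTBP1-AS1, by 0.22 within the background range (limma adjusted p = 0.0497). Both of its symbols are names of 1 current gene, CTBP1-DT. FARP1/FARP1-IT1, an intronic pair, rose 1.61-fold and was the only call among 6 such pairs, while the other FARP1 probe set, within the background range, did not pass (0.43, limma adjusted p = 0.0865).

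Probe sets whose symbols are old and new names of 1 gene can be read as that gene. Of these 187, 25 rose and 21 fell, or 24.6%, near the 23.5% over probe sets with 1 symbol. CHDC2/CXorf59, now CFAP47, a gene of cilia and flagella, read 11.04, 10.63 and 10.71 in SND1 knockdown arrays and 7.52, 7.23 and 7.15 in vector control arrays, 11.2-fold higher (3.49 ± 0.14 SE, limma adjusted p = 1.75e-05). HNRNPLL/HNRPLL, for a regulator of alternative splicing, rose 2.94-fold to 9.76, 9.81 and 9.84 in SND1 knockdown arrays, against 8.35, 8.13 and 8.26 in vector control arrays. TOX2/C20orf100, for an HMG-box protein, was at least 1.34-fold higher (1.54 ± 0.07 SE), with the vector control arrays within the background range. ANKEF1/ANKRD5 rose 2.41-fold, and KMT2C/MLL3, for a histone H3 lysine 4 methyltransferase, 1.95-fold (0.96 ± 0.07 SE). TMEM256/C17orf61 was 1.69-fold lower.

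For 309 pairs, formed by 272 shared probe sets and a symbol that also had a probe set of its own, the response to knockdown was compared within the same arrays. The response differed in 19 pairs (6.15%) by limma with adjustment over the 309 pairs, and the shared probe set responded higher in 12 and lower in 7. The count fell to 11 without vector control replicate 2 and to 12 without SND1 knockdown replicate 2. Neither probe set was called in 232 pairs. In 8 of the 19 the signs were opposite. Of 117 pairs with both probe sets above the background range in at least 1 group, 8 differed.

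Among the pairs that differed, VMP1/MIR21 and MIR338/MIR3065 bear on microRNAs. MIR338/MIR3065 differed by -0.21 and MIR3065 alone by 0.37, both within the background range and neither called. The responses differed by -0.57 ± 0.06 SE (limma adjusted p = 0.00826). VMP1/MIR21 lay above that range. VMP1 encodes a membrane protein of autophagy, and the primary transcript of miR-21 overlaps its end. The shared probe set read 15.16, 15.40 and 15.45 in SND1 knockdown arrays and 15.23, 15.24 and 15.20 in vector control arrays, a difference of 0.11 that did not pass (limma adjusted p = 0.526). The probe set of MIR21 alone read 7.43, 7.56 and 7.51 in SND1 knockdown arrays and 8.28, 8.54 and 8.15 in vector control arrays, and fell by 0.82 (limma adjusted p = 0.00265). The responses differed by 0.94 ± 0.11 SE (limma adjusted p = 0.00888).

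NOS3/ATG9B had the smallest adjusted p. NOS3 encodes endothelial nitric oxide synthase, and ATG9B, for a membrane protein of autophagy, lies opposite it. The shared probe set read 5.38, 5.49 and 5.44 in SND1 knockdown arrays and 4.46, 4.47 and 4.44 in vector control arrays, while that of ATG9B alone stayed between 4.04 and 4.10 on all 6 arrays. The responses differed by 0.96 ± 0.03 SE (limma adjusted p = 0.000279), within the background range throughout.

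In COA8/KLC1 the shared probe set read 7.10, 7.14 and 7.09 in SND1 knockdown arrays and 7.08, 7.13 and 7.10 in vector control arrays. KLC1, which encodes a kinesin light chain, read 9.74, 9.70 and 9.74 in SND1 knockdown arrays and 10.64, 10.58 and 10.66 in vector control arrays on its own probe set, and fell by 0.90. The responses differed by 0.91 ± 0.05 SE. SCAF8/TIAM2 did not pass (0.25, limma adjusted p = 0.0650), while TIAM2, for an activator of the GTPase RAC, fell by 1.18 on its own probe set. SLC7A5P2/SMG1P3/SLC7A5P1 rose by 0.64 whereas SLC7A5P1, a pseudogene of an amino acid transporter, fell by 0.63 on its own. PSG2/PSG5 fell by 0.48 and PSG5, a pregnancy-specific glycoprotein gene, had a difference of -2.23 on its own, so that the responses differed by 1.75 ± 0.13 SE. Neither group exceeded the background range on the shared PSG2/PSG5 probe set, and that of PSG5 averaged 4.12 in SND1 knockdown arrays and 6.34 in vector control arrays, so neither difference gives a measured fold.

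The shared probe set fell more in FBXO17/SARS2 (-1.17, against -0.07 for SARS2, the mitochondrial seryl-tRNA synthetase gene) and in APOBEC3B/APOBEC3B-AS1 (-1.88, against -0.03 for the antisense transcript, whose own probe set lay within the background range). ALG10B/ALG10 rose by 1.46 and ALG10 alone by 0.71, with responses that differed by 0.75 ± 0.07 SE. The protocadherin alpha probe set with 15 symbols rose by 0.30 and PCDHA7 fell by 0.28 on its own, both within the background range. The call of the shared one ended without SND1 knockdown replicate 2 (adjusted p = 0.0548) or 3 (0.0776) or vector control replicate 2 (0.0770) or 3 (0.0880).

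**Figure D4:**
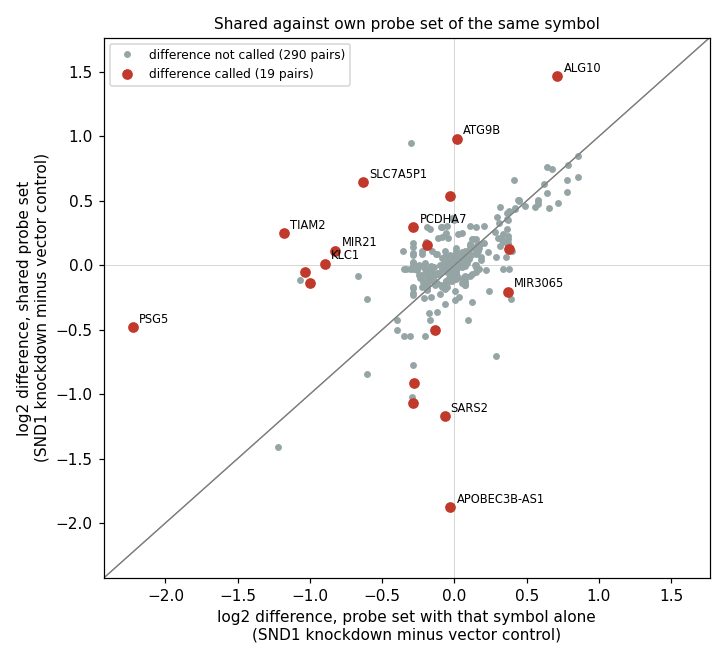
Log2 difference (SND1 knockdown minus vector control) of the shared probe set, on the vertical axis, against that of the probe set with the named symbol alone, on the horizontal axis, for 309 pairs. Points on the diagonal respond alike, large points are the 19 pairs whose responses differed, and 11 of these carry the symbol with its own probe set.

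Shared probe sets followed no even pattern over chromosomes. On chromosome 13, 9 of 21 rose and 0 fell, where 21.8% of its 583 probe sets with 1 symbol rose and 6.00% fell. They included ALG11/UTP14C (1.68-fold), MIR621/SLC25A15 (1.62-fold), FARP1/FARP1-IT1 and the DLEU2 probe set. On chromosome 14, 0 of 23 rose and 6 fell, where 3.19% of 879 rose and 26.6% fell, and the 6 included NPC2/MIR4709, DHRS4L2/DHRS4 and HAUS4/MIR4707. On chromosome 22, 1 of 32 rose and 9 fell, where 3.67% of 518 rose and 16.8% fell, and on chromosome 19, 3 of 71 rose and 14 fell, where 4.93% of 1481 rose and 16.3% fell. The part of a shift of whole chromosomes in the named changes there was not tested. On chromosome 7, in contrast, 13 of 82 shared probe sets rose and 1 fell, while 10.6% of 1064 with 1 symbol rose and 9.12% fell. Chromosome 7 was not alone in this. On chromosome 15, 10 of 78 rose and 1 fell, where 10.1% of 753 rose and 11.3% fell. The lean was opposite on chromosome 9, where 2 of 51 rose and 8 fell, against 11.7% and 9.91% of 918. These differences between the kinds were not tested.

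**Figure D5:**
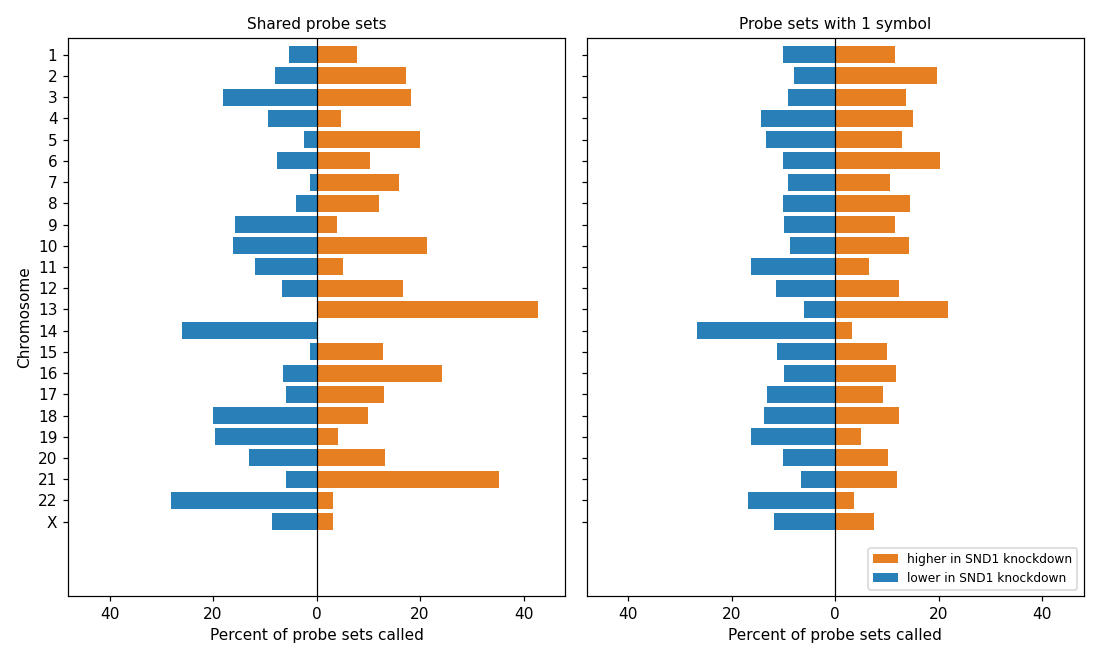
Percent of probe sets called higher (right of 0) and lower (left of 0) in SND1 knockdown against vector control on each chromosome, for shared probe sets (left panel, 10 to 152 per chromosome) and for probe sets with 1 symbol (right panel). Chromosome 13 leans to higher and chromosomes 14, 19 and 22 lean to lower in both panels.

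By gene list, 46 shared probe sets held a host of small nucleolar RNAs, and 3 rose and 4 fell. Of 52 with testis antigens and X-linked copies, 4 fell, 2 each of SPANXB1/SPANXB2/SPANXF1 and SPANXA1/SPANXA2. Another 2 rose, both of SSX2B/SSX2 and within the background range. Only the 2 SPANXB1/SPANXB2/SPANXF1 probe sets, which hold the same values, exceeded that range in a group. Of 13 with microRNA hosts, 2 rose and 2 fell, and the second of the falls was MIR23B/MIR24-1/MIR27B/MIR3074 with AOPEP, by 0.29. That call ended without any 1 array other than SND1 knockdown replicate 3, with adjusted p between 0.0599 and 0.102. Of 8 with immune and interferon genes, 0 rose and 3 fell: APOBEC3B/APOBEC3B-AS1, APOBEC3A/APOBEC3A_B (by 0.75, within the background range) and IRF9/RNF31 (by 0.28, within it as well). The IRF9 call ended without any 1 array other than SND1 knockdown replicate 2, with adjusted p between 0.0637 and 0.107. Of 3 with lipid and energy genes 2 fell, MIR1908/FADS1, with a fatty acid desaturase gene, by 0.35 and the NDUFC2 probe set. Of 3 with growth factors 1 rose and 1 fell, ERBB2 and CERS1/GDF1. Of 3 with genes of adhesion and the epithelial-mesenchymal transition 2 rose, LAMB3/MIR4260 and CTNND1/SELENOH, which rose by 0.30 and includes the gene for a catenin of cell junctions. The CTNND1 call ended without SND1 knockdown replicate 1 (adjusted p = 0.0585) or 2 (0.0590) or vector control replicate 1 (0.0790) or 2 (0.0742).

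Of 6 on the stress list 1 rose. HSPA1A/HSPA1B, for an inducible heat shock chaperone, rose by 0.32 (limma adjusted p = 0.0466), while the other probe set with the same symbols differed by 0.34 (0.0532), and the call of the first ended whichever array was left out, with adjusted p between 0.0599 and 0.127. Of 2 with matrix genes 0 were called: COL3A1/MIR3606 differed by -0.10 and CEP295NL/TIMP2 by -0.07. The cell cycle list had no shared probe set. All these counts are descriptions, to be read beside the background of 14.3%.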

How the data were processed

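The deposited log2 values per probe set were made by the authors with RMA (robust multi-array average), per the submitters' processing notes, which give no version. RMA subtracts background, equalizes the arrays' quantiles and combines the oligonucleotides of a probe set. The sources used here do not give the variant of RMA or the probe sets' genome build, and scanner files were not analysed here. Symbols came from the platform annotation, which can be old. Of 2473 different symbols 2456 matched the RefSeq gene table of GRCh38.p14, which gave current names, neighbour order and strand. Of 1317 probe sets with several symbols on chromosomes 1 to 22 and X, 3 that repeat 1 symbol and the SND1 probe set were left out.

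In R 4.3.3, limma 3.58.1 (lmFit, then eBayes) gave the differences over all 67528 transcript probe sets, without covariate or filter, and adjusted by Benjamini-Hochberg. Pairs were tested the same way on the per-array difference of both probe sets. Kinds of sharing were read from the symbols alone, in the order small RNA, readthrough, antisense, intronic transcript, same leading letters, uncharacterised partner and other. Identical values means equal to 5 decimals. Promoter windows were aligned with Biopython 1.88.

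The named probe sets are the ZEB2 one, the 12 largest rises and 12 largest falls among called probe sets without overlap and with the brighter group above 6.28, up to 6 more of each kind and 4 of each of 11 gene lists by smallest adjusted p, and the 6 pairs of smallest adjusted p. Others were chosen after their values were seen: the copy families, the VMP1/MIR21 and further pairs, and the chromosome examples. The members and lists were chosen with earlier results of these data known. The fit was tested on simulated data, in 5 draws of the knockdown comparison with 200 of 67528 probe sets changed. There 27.2%, 73.1% and 95.2% of changes of log2 size 0.5, 1 and 2 were called and 5.57% of calls were false. In the deposited data 14.3% were called, and the cut-off depends on the share changed. The simulated noise was also independent between probe sets, so these rates need not hold for the deposited data. The number of arrays limits the precision. Alternatives were other filters on dim probe sets, renewed quantile normalization, median centring, trend and robust eBayes, array weights, a replicate block and each array left out.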

Additional observations from a re-analysis of the deposited data

How the results depend on the processing

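Of the 91 named probe sets, 74 kept their direction and their side of the threshold under every alternative that was run, 11 lost a call under at least 1 and 4 that had not passed gained one (HSPA1B/HSPA1A, SCAF8/TIAM2, HOXA3/HOXA6 and TNFSF12/TNFSF12-TNFSF13). INS/IGF2/INS-IGF2 changed sign without SND1 knockdown replicate 2 (0.0237; range over left-out arrays -0.0412 to 0.0237), and COA8/KLC1 after renewed quantile normalization (-0.0328), without vector control replicate 1 (-0.0019) and without SND1 knockdown replicate 2 (-0.0059; range -0.0059 to 0.0229). Neither is called.

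With the replicate number as a block, 103 shared probe sets were higher and 83 lower, and 12 pairs differed. No label states that the numbers pair the samples. Same-numbered arrays deviated from their group means with correlations of -0.075, -0.080 and -0.207. With 3 arrays per group, such correlations cannot decide whether samples were prepared in pairs. Leaving out 1 array gave 103 to 138 higher, 79 to 109 lower and 11 to 16 pairs. Without vector control replicate 3 the count of higher ones was 103, and 11 pairs differed without vector control replicate 2 and 12 without SND1 knockdown replicate 2. Renewed quantile normalization moved the split over all transcript probe sets to 4740 higher and 4760 lower, and over shared ones to 141 and 125. Restricted to means above 6.28, 9 of 115 pairs differed. In that fit 1 of 12 antisense, 5 of 37 readthrough and 21 of 153 same leading letters probe sets were lower. Of 54 with an uncharacterised partner, 10 were higher. The main counts were 2 of 37, 9 of 73 and 39 of 439 lower, and 16 of 124 higher. Over all 15930 transcript probe sets in the restricted fit, 4577 were higher and 3503 lower. With each probe set counted in every kind its symbols show, 2 of 9 intronic transcripts were higher, against 1 of 6 in the main count. The cause of these moves was not tested, other than the smaller number of probe sets or arrays. Leaving out the 187 probe sets that name 1 gene, and counting identical values once, were added after seeing the data. A block for slide or scan was not run, since the files name neither.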
